A study of Mus musculus with 12 samples.

Results

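The genes described here encode the respiratory chain and the ATP synthase of mitochondria, in mature B cells sorted from mouse bone marrow. They were chosen by name: symbols that start with Ndufa, Ndufb, Ndufc, Ndufs, Ndufv, Uqcr, Cox4i, Cox5, Cox6, Cox7, Cox8 or Atp5, the symbols Sdha, Sdhb, Sdhc and Cyc1, and the 13 protein genes of the mitochondrial genome. Of the 27179 genes in the count table, the rule found 100 in the nucleus and 13 in the mitochondrial genome. Of the nuclear genes, 24 encode core subunits, 52 accessory subunits, 8 assembly factors of complex I, 8 isoforms known from particular tissues, 1 a factor of respiratory supercomplexes, and 7 are extra copies or pseudogenes. A filter on low counts kept 90 nuclear genes and all 13 mitochondrial ones for testing. The 10 nuclear genes it left out were Ndufa11b, Ndufb4b, Uqcr11, Uqcrh-ps1, Cox4i2, Cox6a2, Cox7b2, Cox8b, Cox8c and Ndufa4l2. Unlike the others, Uqcr11 encodes a general accessory subunit, of complex III. It had 2 reads over all 12 libraries, and the reason for this low count was not tested.

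The respiratory chain passes electrons from NADH and succinate to oxygen through complexes I to IV of the inner mitochondrial membrane and pumps protons as it does so. ATP synthase, complex V, uses the proton gradient to make ATP. Complexes I, III, IV and V are each built from subunits of both genomes, so cells have to match RNA made inside mitochondria with RNA made in the nucleus, while the subunits of complex II are all nuclear. Cytochrome c, which carries electrons between complexes III and IV, is also the protein that leaves mitochondria when BAX or BAK1 opens the outer membrane in apoptosis.

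There were 4 groups of 3 libraries, from C57BL/6 mice, each made from cells sorted as B220high IgM+ CD93-. The young wild-type mice were 9, 10 and 11 weeks of age and the old wild-type mice 98, 99 and 100 weeks. The other groups were 10 weeks of age and lacked Bak: Bak-/- Baxfl/fl mice, called apoptosis-sensitive, kept a Bax gene flanked by loxP sites, and Bak-/- BaxD/D mice, called apoptosis-resistant, had lost it as well. The cell type in which Cre recombinase acted was not given in the sources used here. Libraries with the same replicate number shared a collection date within the wild-type groups (24 March, 11 April and 12 April) and within the Bak-deficient groups (30 May, 31 May and 7 May). The label of the 24 March pair gives the year 2006 and the other labels 2016. Dates were read as year, day and month, the one order that entries such as 24-03 and 30-05 allow, and the 7 May entry was read in the same order.

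A short read of a mitochondrial gene may match a nuclear copy of mitochondrial DNA equally well, so sequences with and without such a copy are shown first. A run of mouse chromosome 1 on the minus strand, annotated as pseudogenes (build GRCm38, GENCODE vM21), repeats part of the mitochondrial genome. The pair below is shown because the copy of mt-Co2, a core subunit of complex IV, matched the gene at every one of the 681 bases aligned. The first line is chrM:7013-7072 on the plus strand and the second is chr1:24615506-24615565 on the minus strand, both from the first base of the gene or pseudogene.
mt-Co2: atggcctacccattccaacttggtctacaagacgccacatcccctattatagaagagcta
Gm28661: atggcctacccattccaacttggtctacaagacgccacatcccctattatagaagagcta
The second pair is shown as a contrast. It holds mt-Nd5, a core subunit of complex I, at chrM:12642-12701, beside its copy on chromosome 13 at chr13:85127260-85127319 on the minus strand. Capitals mark the 9 bases at which these 60 bases differ.
mt-Nd5: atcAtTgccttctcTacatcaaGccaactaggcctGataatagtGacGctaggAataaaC
Gm4076: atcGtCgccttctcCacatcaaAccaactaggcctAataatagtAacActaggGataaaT
The chromosome 1 copies of mt-Co3, mt-Atp6 and mt-Nd4l also had 0 differences from the genes over the bases aligned, and that of mt-Nd3 had 1. For these genes 98.0% to 99.9% of all 50-base windows were found in the copy as well. The copied run takes in 62.2% of the windows of mt-Nd4 and 28.7% of those of mt-Co1. A copy of mt-Co1 on chromosome 2, Gm13340, aligned over 1545 of its 1545 bases at 97.6% identity. With all copies counted, 51.1% of the windows of mt-Co1 were found in other transcripts. The small gene mt-Atp8 lies between mt-Co2 and mt-Atp6, inside the copied run, with no annotated partner.

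Promoter sequences of 76 nuclear members, 81 promoters in all, were in the RefSeq table of build GRCm38.p6, from 250 bases before to 50 bases after the start. Promoters of respiratory genes are known for sites of NRF1, of the ETS factor GABP and of YY1, beside the more general SP1. The NRF1 letters (GCGC, any base, TGCGC) were found, on either strand, in 24.7% of the promoters of tested members and in 9.82% of those of all tested genes. The corresponding shares were 22.1% and 17.5% for the ETS letters CCGGAAG, 9.09% and 3.09% for the YY1 letters (AA, any base, ATGGCGG), and 44.2% and 60.6% for the SP1 letters GGGCGG. A match describes the letters and is not evidence of a bound factor. The promoters of 3 complex IV genes are printed because Cox7a2l and Cox6a1 had the lowest and Cox7c the highest difference of the nuclear members between the March and April dates described below. Capitals mark matches to any of the motifs. Cox7a2l is at chr17:83514284-83514583, Cox6a1 at chr5:115348909-115349208 and Cox7c at chr13:86046746-86047045, all on the minus strand.
Cox7a2l: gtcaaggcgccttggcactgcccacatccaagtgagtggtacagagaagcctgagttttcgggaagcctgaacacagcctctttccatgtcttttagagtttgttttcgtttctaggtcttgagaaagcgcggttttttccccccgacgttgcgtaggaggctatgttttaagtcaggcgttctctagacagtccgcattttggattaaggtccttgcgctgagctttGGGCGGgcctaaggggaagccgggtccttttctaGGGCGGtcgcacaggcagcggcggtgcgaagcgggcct
Cox6a1: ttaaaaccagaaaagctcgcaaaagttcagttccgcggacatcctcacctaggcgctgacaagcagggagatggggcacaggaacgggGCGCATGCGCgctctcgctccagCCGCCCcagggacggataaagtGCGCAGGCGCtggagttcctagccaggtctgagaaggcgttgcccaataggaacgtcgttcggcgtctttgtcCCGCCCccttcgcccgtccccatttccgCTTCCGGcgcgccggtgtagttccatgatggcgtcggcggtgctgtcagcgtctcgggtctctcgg
Cox7c: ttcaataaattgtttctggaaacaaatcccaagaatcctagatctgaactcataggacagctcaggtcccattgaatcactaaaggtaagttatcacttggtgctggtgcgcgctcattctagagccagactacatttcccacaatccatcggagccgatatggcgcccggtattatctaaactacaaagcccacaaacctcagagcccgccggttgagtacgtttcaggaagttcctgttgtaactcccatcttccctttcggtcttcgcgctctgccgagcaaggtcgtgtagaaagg
The Cox6a1 promoter holds 2 NRF1, 1 ETS and 2 SP1 matches, that of Cox7a2l holds 2 SP1 matches, and that of Cox7c holds 0 matches.

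A level is written as CPM (a gene's reads as a share of its library, on the usual CPM scale, after scaling by the trimmed mean of M values, TMM), or as CPM per kilobase of transcript where genes are compared with each other. Total counts ran from 13474162 to 23539764 per library. The targeted genes followed the labels: Bak1 was at 24.7 to 47.8 CPM in wild-type libraries and 6.17 to 14.4 CPM in the Bak-deficient ones, and Bax at 44.1 to 100.1 CPM in the 9 libraries with an intact gene and 4.96 to 8.36 CPM in the apoptosis-resistant ones. The defining B cell markers were present in every library (Cd79a at 809 to 2030 CPM, Cd79b at 750.2 to 2023 CPM), and Cd93, which the sort excluded, was at 9.51 to 36.1 CPM.

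Mitochondrial-genome RNA was the greater part of the respiratory chain RNA in every library. The 13 genes summed to 15181 to 33546 CPM, against 2314 to 5410 CPM for the nuclear members, so the mitochondrial sum was 2.81 to 14.0 times the nuclear one. Per kilobase, mt-Co1, the catalytic subunit of complex IV, led at a mean of 6867 CPM over the 12 libraries and held 45.1% to 54.5% of the mitochondrial reads. It was followed by mt-Cytb, the cytochrome b of complex III (2305), and by the complex I subunits mt-Nd1 (2245), mt-Nd2 (1466), mt-Nd5 (1415), mt-Nd6 (952), the one protein gene on the other strand, and mt-Nd4 (906). The 6 genes that lie wholly inside the run copied on chromosome 1 were far lower, at 264 CPM per kilobase for mt-Atp6 and 69.7 for mt-Atp8, both subunits of ATP synthase, 154 for mt-Co2 and 113.3 for mt-Co3, both of complex IV, and 18.5 for mt-Nd4l and 11.3 for mt-Nd3, both of complex I. The ranges did not overlap between the 7 genes outside or partly outside the run (906 to 6867) and the 6 inside it (11.3 to 264). The counts of these 6 genes are therefore uncertain, since it is not known how reads with several matching places were counted. Those of mt-Co1 and mt-Nd4 are uncertain too, since 51.1% and 62.2% of their windows were found in other transcripts. The mt-Co1 share, the place of mt-Nd4 and the ratio of the mitochondrial to the nuclear sum rest on these counts. How far they are affected was not tested. Of the 6 genes inside the run, mt-Nd3, mt-Nd4l and mt-Atp8 had the fewest reads, 825, 1207 and 2993 over all 12 libraries. mt-Nd4l had 19.5 CPM in apoptosis-sensitive replicate 1 and 0.654 CPM in replicate 3 of the same group.

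**Figure D1:**
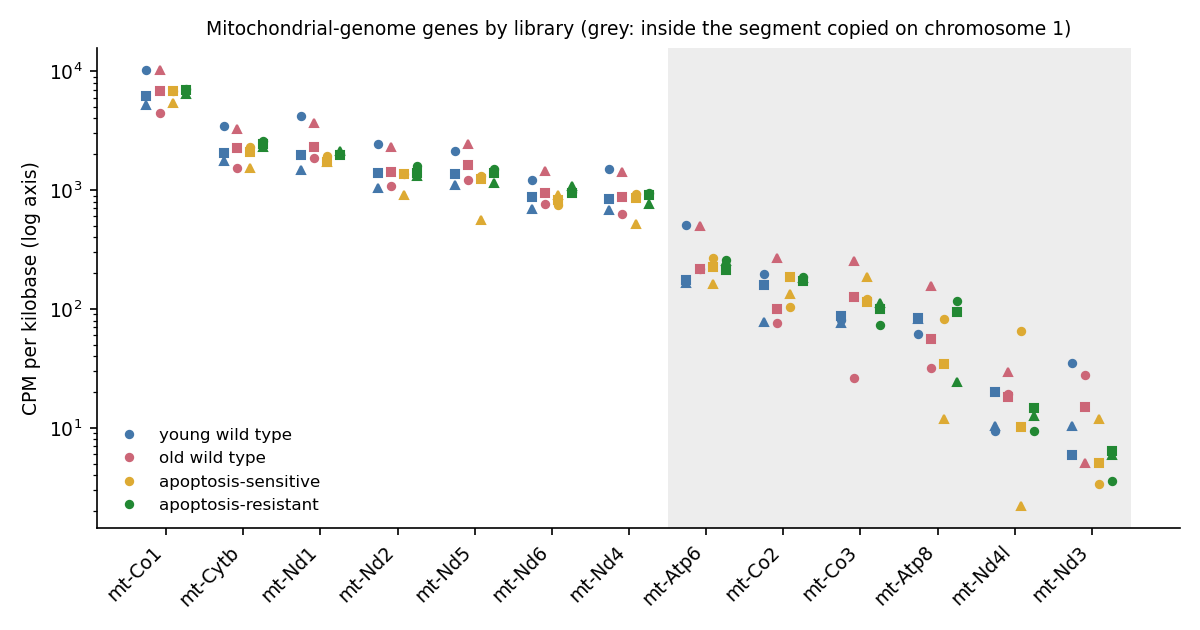
CPM per kilobase (log axis) of the 13 mitochondrial genes in each of the 12 libraries, by group (colour) and replicate number (circle 1, square 2, triangle 3), with genes in order of their mean. The 6 genes on grey, which lie in the run copied on chromosome 1, have means of at most 264 CPM per kilobase, and the other 7 of at least 906.

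Nuclear members were lower and spanned a wide range. The catalytic beta subunit of ATP synthase, Atp5b, led at 227 CPM per kilobase over the 12 libraries, followed within the other complexes by Cox4i1 of complex IV (114), Sdha, the flavoprotein of complex II (87.9), Uqcrc1, a core protein of complex III (84.7) and Ndufs7, an iron-sulfur subunit of complex I (70.3). Their levels were 201 ± 93.8 CPM per kilobase (SD, n = 3) for Atp5b in young wild type and 194 ± 85.6 in old, and 277 ± 27.3 and 238 ± 18.6 in apoptosis-sensitive and apoptosis-resistant cells. The spread of Ndufs7 was narrower, at 74.3 ± 17.9, 68.2 ± 9.27, 70.0 ± 16.2 and 68.6 ± 14.4 CPM per kilobase in the same order of groups. Median levels were 17.8 CPM per kilobase for the tested members of complex I, 53.9 for complex II, 51.8 for complex III, 41.6 for complex IV and 42.4 for complex V. At the other end of each complex stood the extra copy Ndufs6b (1.33), the membrane anchor Sdhc of complex II (12.3), the accessory subunit Uqcrq (7.31), the testis isoform Cox6b2 (1.22) and the pseudogene Atp5c1-ps (0.582). The place of Uqcrq rests on the length used, 1521 bases. It had 2505 reads in all, beside 2173 for Uqcrb (535 bases) and 2379 for Uqcr10 (434 bases). The 5 members with at least 50% of their windows in other transcripts (Atp5h, Cox7c, Atp5l, Atp5g2 and Ndufb4c, at 50.5% to 100.0%) had a median of 8.33 CPM per kilobase, beside 24.7 for the 55 members with no shared window. Their counts are uncertain for the same reason.

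Where a subunit has several isoforms, B cells carried mostly the widely expressed one in the Cox4i, Cox6a, Cox6b, Cox8 and Ndufa4 families. Per kilobase, Cox4i1 made up 99.5% to 100.0% of its pair across the 12 libraries, Cox6a1 99.0% to 100.0%, Cox8a 99.4% to 100.0%, and Ndufa4, now counted as a subunit of complex IV, 99.7% to 100.0% beside Ndufa4l2. Their partners, most of them known from lung, heart and muscle or testis, had few reads over all 12 libraries: 13 for Cox4i2, 43 for Cox6a2, 5 for Cox8b, 0 for Cox8c and 5 for Ndufa4l2. Cox6b1 made up a median of 97.9% of its pair and 78.1% at the lowest, with 146 reads of Cox6b2 in all. Of the 3 genes for the c subunit that forms the rotor ring of ATP synthase, Atp5g3 gave 89.2% to 96.8%, Atp5g2 2.39% to 8.53% and Atp5g1 0.753% to 2.26%. The order of Atp5g2 and Atp5g1 rests on the lengths used, 731 and 4715 bases. By reads over all 12 libraries Atp5g1 had more, 1038 beside 655. Cox7a was the exception in share and in level. The muscle isoform Cox7a1 made up a median of 60.2% of its pair and the widely expressed Cox7a2 39.8% (15.2% to 68.0%), but both had few reads, 155 and 185 in all. Other widely expressed subunits of complex IV, Cox6a1 and Cox8a, had 12066 and 11735 reads. No 50-base window of Cox7a2 was found in another annotated transcript, but no genome was searched. The reason for its low count was not tested, so the order of the Cox7a pair is uncertain.

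Nuclear members differed more between collection dates, by their median, than between ages or Bax genotypes, so the dates are described first. On a log2(CPM + 0.5) scale, the nuclear median in the pair of 24 March wild-type libraries was 0.55 lower than in the 4 April ones, while the median of all tested genes differed by -0.04 and that of the mitochondrial genes by 0.02. The mitochondrial value averages unlike libraries of this pair. Their mitochondrial genes summed to 33546 CPM in the young and 15295 CPM in the old one. Of the 90 nuclear members, 50 were lower in both March libraries than in each April library, where 29.7% of all tested genes were, and 13 were higher in both, where 26.9% of all tested genes were. The libraries were divided by date, with 24 March set against the April dates, and no test was made of this difference. Fewer B cells and less RNA per cell cannot be told apart in bulk samples, and neither can the RNA of other cells in a sort.

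The nuclear member with the lowest difference between March and April and the one with the highest are both counted with complex IV. By complex the medians were -0.49 (I), -1.04 (II, 3 of 3 genes lower), -0.55 (III), -0.81 (IV, with Cox7a2l) and -0.58 (V). The 14 genes of complex IV were split, with Cox5a at -1.28 and Cox7b at -0.34 in the middle. Cox7a2l, classed here by role as a supercomplex factor, was at 33.7 CPM in the young and 25.3 CPM in the old library of 24 March. It was at 95.3 to 151 CPM in the 4 April libraries, a log2 difference of -2.07. Cox6a1 was next at -1.76, then Sdhc at -1.69, and the alpha subunit of ATP synthase Atp5a1 at -1.61, while Cox4i1 differed by -1.48. Other nuclear members were higher in March: Cox7c was at 32.8 and 24.3 CPM in March against 7.21 to 10.5 CPM in April (log2 difference 1.65), Atp5l differed by 1.28, Cox5b by 0.84 and cytochrome c1, Cyc1, by 0.75. Cox7c and Atp5l have 53.0% and 68.5% of their windows in other transcripts, so their counts are uncertain. Medians by role were -0.66 for core subunits, -0.66 for accessory subunits and 0.19 for the 8 assembly factors. Transcript length moved with date over all tested genes, whose medians were -0.56 for those up to 700 bases and -0.04 for longer ones. The nuclear members of over 1500 bases had a median of -0.62, beside -0.50 for those up to 700 bases.

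In the Bak-deficient groups the pair of 7 May libraries stood apart in the opposite direction. The nuclear median was 0.55 higher on 7 May than on 30 and 31 May, and 70 of 90 nuclear members were higher in both 7 May libraries than in each of the other 4, where 22.5% of all tested genes were. The mitochondrial median was 0.25 lower, and mt-Nd2, mt-Nd4, mt-Nd5, mt-Co1 and mt-Atp8 were lower in both libraries, 5 of 13 genes where 23.0% of all tested genes were. Most of the mitochondrial fall was in the sensitive library of 7 May, whose mitochondrial genes summed to 15181 CPM. The resistant one was at 20134 CPM, beside 20181 to 22378 CPM on the other dates. Length moved with this date too: over all tested genes the median was 0.29 for those up to 700 bases, 0.34 for 700 to 1500 bases and -0.05 for longer ones, beside 0.62, 0.53 and 0.29 for nuclear members. Cox7a2l was at 229 and 209 CPM on 7 May and at 123 to 137 CPM on the other dates. The part of transcript length in the differences between dates was not tested. Setting 7 May apart from the other dates was not planned in advance, and no test was made of this difference.

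**Figure D2:**
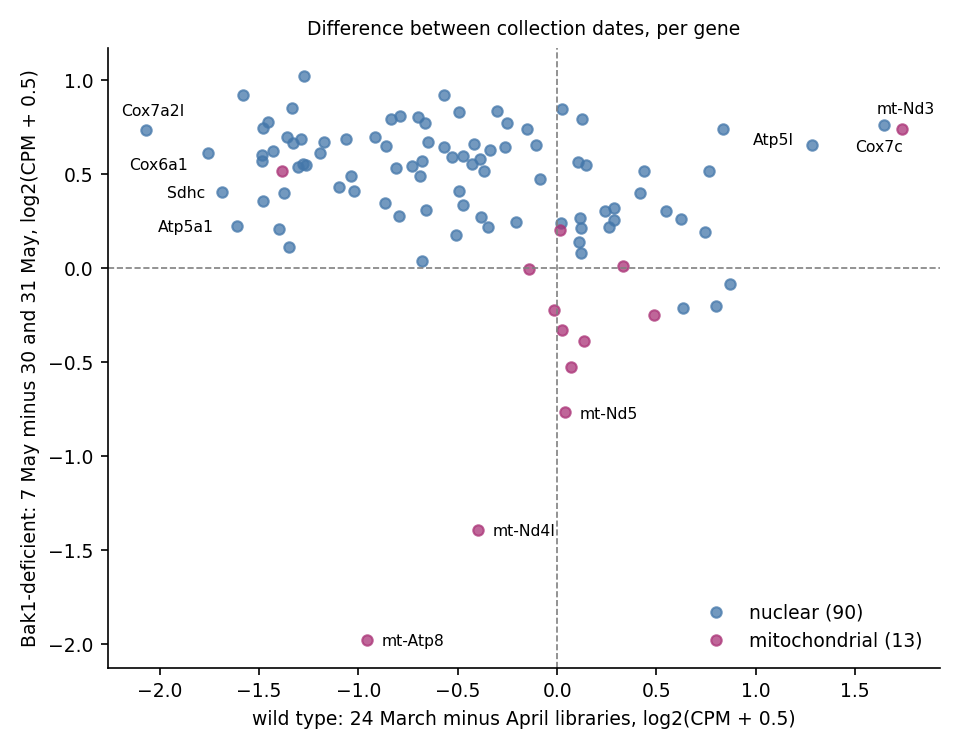
Difference between collection dates for each tested member, as the mean log2(CPM + 0.5) of the 24 March minus the April wild-type libraries (horizontal) and of the 7 May minus the 30 and 31 May Bak-deficient libraries (vertical). Nuclear members (blue, 90) lie mostly at the upper left, with 65 below 0 in March and 87 above 0 on 7 May, while the mitochondrial genes (purple, 13) are spread about 0 in March with a median of 0.02. The March values of these mitochondrial genes average a young library, where they summed to 33546 CPM, and an old one, at 15295 CPM.

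Old and young wild-type B cells were compared to ask whether respiratory chain RNA changes with age. No member passed edgeR's quasi-likelihood test at an adjusted p under 0.05: 0 of 90 nuclear and 0 of 13 mitochondrial genes, where 2.01% of all 13592 tested genes did. At an unadjusted p under 0.05 there was 1 nuclear gene, Cox6b2, and DESeq2 also called 0 members, where it called 5.15% of all tested genes. The median fitted log2 fold change, old minus young, was -0.08 for nuclear members, 0.05 for mitochondrial genes and -0.03 for all tested genes, with a median standard error of 0.36 for a nuclear member. Scaling to library totals without TMM moved these medians to 0.01, 0.16 and 0.07, so the sign of the nuclear median follows the scaling and its place just below all genes does not. Without the 24 March libraries 0 members passed, and the median was -0.09 for nuclear and 0.61 for mitochondrial members. Among complexes the nuclear medians were 0.01 (I), 0.08 (II), -0.11 (III), -0.14 (IV) and -0.14 (V).

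Among nuclear members, the fitted values farthest from 0 in the age comparison belonged mostly to weakly expressed genes. The lowest were those of Cox6b2 (-1.89 ± 0.76, SE, adjusted p = 0.330), Cox7a1 (-0.73 ± 0.58) and Cox7a2 (-0.50 ± 0.65), and the highest those of the assembly factor Ndufaf2 (0.58 ± 0.41), the extra copy Ndufb4c (0.52 ± 0.59) and Atp5g1 (0.44 ± 0.36). Of the mitochondrial genes, mt-Nd4l (0.74 ± 0.83) and mt-Co3 (0.73 ± 0.55), both inside the copied run, had higher fitted values than any nuclear member and did not pass the test either. Cox6b2 was at 2.05, 0.642 and 1.19 CPM in young and 0.587, 0.0512 and 0.376 CPM in old libraries, so the groups did not overlap but rest on a handful of reads. More abundant genes showed narrower gaps. Atp5h, subunit d of ATP synthase, was at 29.8, 27.1 and 27.0 CPM in young and 19.0, 23.4 and 23.9 CPM in old libraries, a fitted log2 fold change of -0.34 ± 0.21 (adjusted p = 0.647). In all, 4 of 90 nuclear members were lower in every old than in every young library, among them Cox6b2, Atp5h and Atp5md, where 6.96% of all tested genes were, and 0 were higher, where 9.16% were.

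Taking the collection date as a block compares old with young mice within each date. With this replicate block, 2 nuclear members passed as lower in old mice, where 14.9% of all tested genes passed in either direction. Cox7a2l fell by 0.42 on the log2 scale (SE 0.09, adjusted p = 0.0105, edgeR with the replicate block), from 33.7 to 25.3 CPM on 24 March, from 151 to 121 CPM on 11 April and from 137 to 95.3 CPM on 12 April. It was lower in old mice in 3 of 3 pairs, beside the log2 difference of -2.07 between dates. Cox6b2 fell by 2.04 (SE 0.61, adjusted p = 0.0411) in the same fit. Over all members 16 of 90 nuclear genes were lower in old mice in all 3 pairs, where 25.2% of all tested genes were, and 5 were higher, where 22.8% were. None of the 13 mitochondrial genes had the same direction in all 3 pairs.

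Of the marker lists of other cells, the T cell genes Cd3g and Trac, the NK cell gene Ncr1, the macrophage gene Adgre1 and the stromal gene Cxcl12 rose with age (edgeR adjusted p from 0.0198 to 0.0419). The summed level of the 4 NK cell markers was 0.942 to 2.90 CPM in young and 5.52 to 7.36 CPM in old libraries, that of the 6 stromal markers 2.55 to 12.9 and 17.7 to 144 CPM, that of the 8 monocyte and macrophage markers 26.5 to 143 and 57.5 to 230 CPM, and that of the 8 T cell markers 36.3 to 72.4 and 45.9 to 77.1 CPM. These lists had no marker at 0 in all 3 libraries of a group. The 8 B cell markers summed to 19537.5 to 20705 CPM in young and 14595 to 19089 CPM in old libraries, lower in old mice on each date. The part of all these markers in the values of the respiratory chain genes was not tested.

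Apoptosis-resistant and apoptosis-sensitive cells differ by the loss of Bax in mice that lack Bak. Again 0 of 90 nuclear and 0 of 13 mitochondrial members passed, where 0.0441% of all tested genes did, and 0 passed with DESeq2, which called 0.942% of all tested genes, or with the replicate block, where 3.41% of all tested genes passed. At an unadjusted p under 0.05 the count was 0 for both classes. The median log2 fold change, resistant minus sensitive, was -0.08 for nuclear members, 0.19 for mitochondrial genes and -0.02 for all tested genes. These medians were -0.08, 0.20 and -0.02 without TMM. By complex the nuclear medians were -0.09 (I), -0.03 (II), -0.07 (III), -0.02 (IV) and -0.17 (V).

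**Figure D3:**
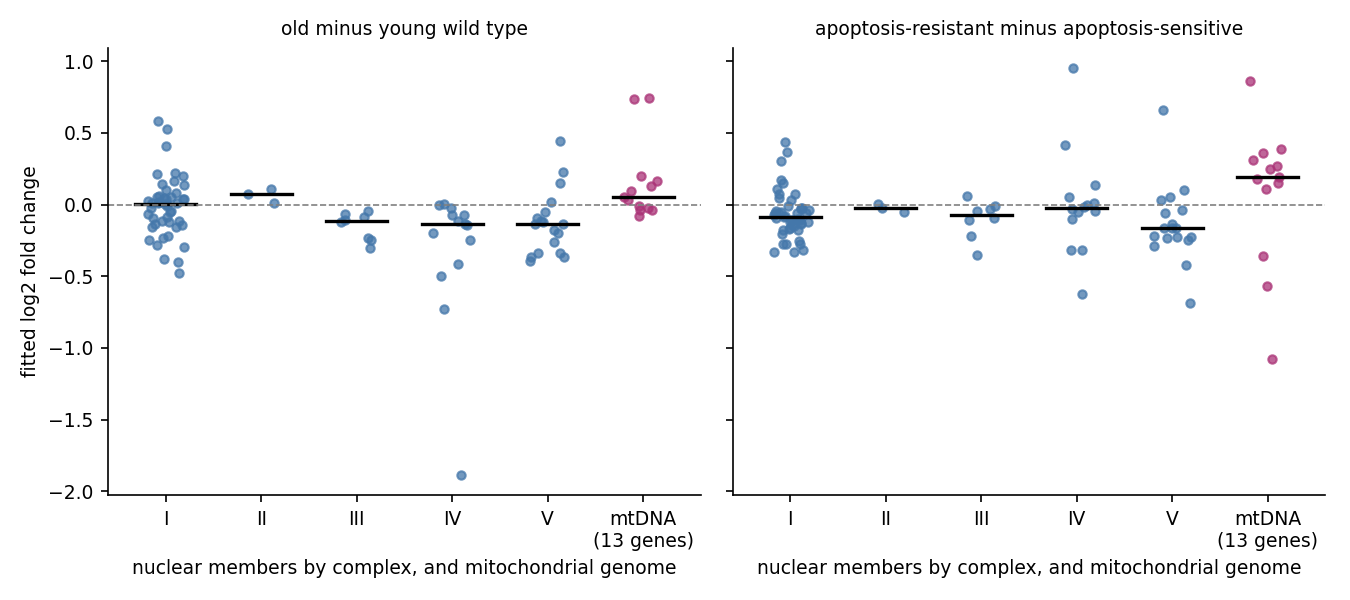
Fitted log2 fold changes of the tested members with age (left) and with Bax loss (right), for nuclear members by complex (blue) and the 13 mitochondrial genes (purple), with a black bar at each median. The medians lie between -0.17 and 0.19 in both panels, and Cox6b2 is the point at -1.89 with age and 0.95 with Bax loss.

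Within each of the 3 dates, resistant cells had more mitochondrial RNA of most of the abundant genes. In all 3 pairs 8 of 13 mitochondrial genes were higher in resistant cells (mt-Nd1, mt-Nd2, mt-Nd4, mt-Nd5, mt-Nd6, mt-Cytb, mt-Co1 and mt-Atp8), where 22.0% of all tested genes were. All but mt-Atp8 are the genes outside or partly outside the copied run. These genes are cut from long shared transcripts of one small genome, so they are not independent of each other. mt-Nd6 was at 390, 427 and 475 CPM in sensitive and 502, 493 and 565 CPM in resistant libraries, and mt-Nd1 at 1846, 1662 and 1655 CPM against 1921, 1873 and 2044 CPM. The groups of these 2 genes did not overlap, where 6.32% of all tested genes were higher without overlap, but their fitted log2 fold changes of 0.27 ± 0.26 and 0.18 ± 0.37 did not pass the test. mt-Co3 went the other way, at 95.6, 89.7 and 146 CPM in sensitive and 57.1, 78.5 and 87.7 CPM in resistant libraries (-0.57 ± 0.55), with nearly all of its windows in the chromosome 1 copy.

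In all 3 pairs 27 of 90 nuclear members were lower in resistant cells, where 23.2% of all tested genes were, and 3 were higher (Ndufa3, Ndufaf2 and Ndufaf8), where 22.0% were. Atp5b was at 500.1, 500.3 and 591 CPM in sensitive and 450, 424 and 495 CPM in resistant libraries, with no overlap and a fitted log2 fold change of -0.22 ± 0.39. Atp5b and the assembly factor Ndufaf1 were the 2 nuclear members lower without overlap, where 8.31% of all tested genes were. The lowest fitted values were those of Atp5c1-ps (-0.68 ± 0.63), Cox7c (-0.62 ± 0.57) and Atp5l, subunit g of ATP synthase (-0.42 ± 0.51), and the highest those of Cox6b2 (0.95 ± 0.75), Atp5k, subunit e (0.66 ± 0.41), and Ndufaf8 (0.43 ± 0.57). Without the 7 May libraries, 0 members passed as well, and the median was -0.01 for nuclear and 0.14 for mitochondrial members.

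Markers of other cells moved with this comparison as well. The 8 granulocyte markers summed to 737, 77.7 and 139 CPM in sensitive and 68.9, 29.3 and 67.2 CPM in resistant libraries, and the 7 erythroid markers to 310.5, 50.4 and 149 CPM against 93.6, 39.0 and 51.8 CPM. Both sums were lower in resistant cells on each of the 3 dates, while 0 markers of either list passed edgeR's test. Neither list had a marker at 0 in all 3 libraries of a group. The B cell markers summed to 19869 to 20263 CPM in sensitive and 18334 to 18593 CPM in resistant libraries, with 0 of them passing. The part of all these markers in the values of the respiratory chain genes was not tested.

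The age effect and the Bax effect were compared directly as a difference of the fitted log2 fold changes. No member passed (0 of 103, where 0.25% of all tested genes did), and DESeq2 also gave 0 where it called 1.88% of all tested genes. At an unadjusted p under 0.05 there was 1, Cox6b2, whose difference was -2.84 ± 1.07 (adjusted p = 0.509). With the replicate block 1 member passed, the accessory complex I subunit Ndufa3, where 7.03% of all tested genes passed. Ndufa3 was at 23.4, 15.8 and 16.6 CPM in young and 19.3, 11.5 and 11.5 CPM in old libraries, lower in 3 of 3 pairs. In sensitive libraries it was at 13.5, 12.9 and 17.4 CPM and in resistant ones at 17.7, 17.2 and 19.2 CPM, higher in 3 of 3 pairs. The difference of the effects was -0.74 ± 0.19 (adjusted p = 0.0392, edgeR with the replicate block), while neither effect passed by itself (age -0.42 ± 0.13, adjusted p = 0.0541, and Bax 0.31 ± 0.13, adjusted p = 0.246, same fit).

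**Figure D4:**
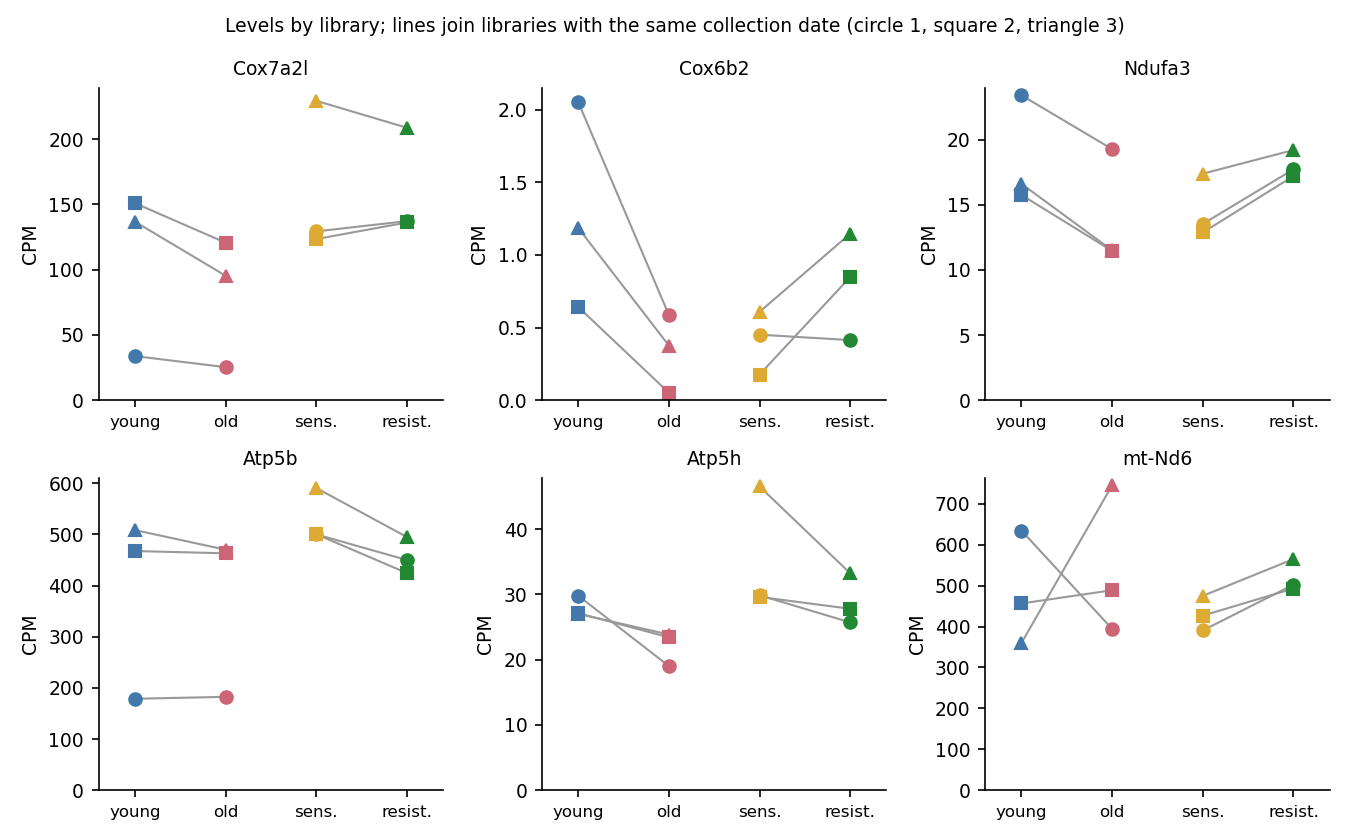
CPM by library for Cox7a2l, Cox6b2, Ndufa3, Atp5b, Atp5h and mt-Nd6, with axes from 0 and lines joining libraries of the same collection date. The March circles of Cox7a2l and Atp5b lie far below the April points in both wild-type groups, and every line of Ndufa3 falls from young to old and rises from sensitive to resistant.

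The Bak-deficient groups were set against young wild type for context. These groups share no collection date, so genotype and date cannot be told apart. In apoptosis-sensitive cells 0 of 103 members passed, where 0.0% of all tested genes did, and in apoptosis-resistant cells 0 of 103, where 0.162% did. DESeq2 also called 0 members in both, where it called 0.103% and 1.09% of all tested genes, and at an unadjusted p under 0.05 there were 0 and 1, the latter mt-Nd3 (-1.67 ± 0.75, adjusted p = 0.801). The median log2 difference from young wild type was 0.34 in sensitive and 0.23 in resistant cells for nuclear members, and -0.39 and -0.12 for mitochondrial genes. Both comparisons use the same 3 young libraries. In sensitive cells 4 of 103 members were higher than in each young library (Ndufa12, Ndufb4, Ndufb5 and mt-Co3), where 4.57% of all tested genes were, and Cox6b2 was lower, where 4.25% were. In resistant cells Ndufa12, Ndufv3, Cox7a2 and Atp5md were higher without overlap, where 6.64% of all tested genes were, and Ndufaf5 and Atp5c1-ps lower, where 6.22% were. Ndufa12, an accessory subunit of complex I, was at 1.23, 1.58 and 1.58 CPM in young, 1.97, 2.12 and 5.00 CPM in sensitive and 2.27, 2.42 and 3.53 CPM in resistant libraries. Without the 24 March libraries, the pair of nuclear medians became 0.14 and 0.09 and the mitochondrial ones 0.08 and 0.25.

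Summed over the members, the mitochondrial RNA varied within groups by as much as it did between them. In young wild-type libraries the 13 genes summed to 33546, 19674 and 16024 CPM and in old ones to 15295, 21756 and 33285 CPM, in order of date. The log2 differences, old minus young, were -1.13, 0.15 and 1.05 on the 3 dates and thus differed in sign. The nuclear sums were 2403, 4064 and 3991 CPM in young and 2314, 4022 and 3556 CPM in old libraries, with log2 differences of -0.05, -0.02 and -0.17. The log2 ratio of the mitochondrial to the nuclear sum was 2.69 ± 0.97 (SD, n = 3) in young and 2.80 ± 0.40 in old mice, a mean difference of 0.10 beside a pooled SD of 0.74. Without the 24 March pair the difference was 0.69, and over the 6 ways to leave out 1 library it ran from -0.24 to 0.66. The pair of libraries with the highest ratios was the young one of 24 March (3.80) and the old one of 12 April (3.23).

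The same sums were steadier in the Bak-deficient groups. The mitochondrial genes summed to 20756, 20181 and 15181 CPM in sensitive and 22378, 21429 and 20134 CPM in resistant libraries, higher in resistant cells on each of the 3 dates. The nuclear sums were 3824, 3946 and 5410 CPM against 3754, 3736 and 4669 CPM, lower in resistant cells on each date. The log2 ratio was 2.09 ± 0.53 in sensitive and 2.40 ± 0.26 in resistant cells, with differences of 0.14, 0.17 and 0.62 by date and a mean of 0.31 beside a pooled SD of 0.41. All 3 differences were thus positive, and their mean was below the pooled SD, which also holds the differences between dates. Leaving out sensitive replicate 3 alone, which leaves the 7 May resistant library unpaired, gave 0.00388. The ratio of apoptosis-sensitive cells was 0.60 below that of young wild type and that of resistant cells 0.29 below it, with pooled SDs of 0.78 and 0.71. Without the 24 March libraries these differences became -0.05 and 0.26.

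**Figure D5:**
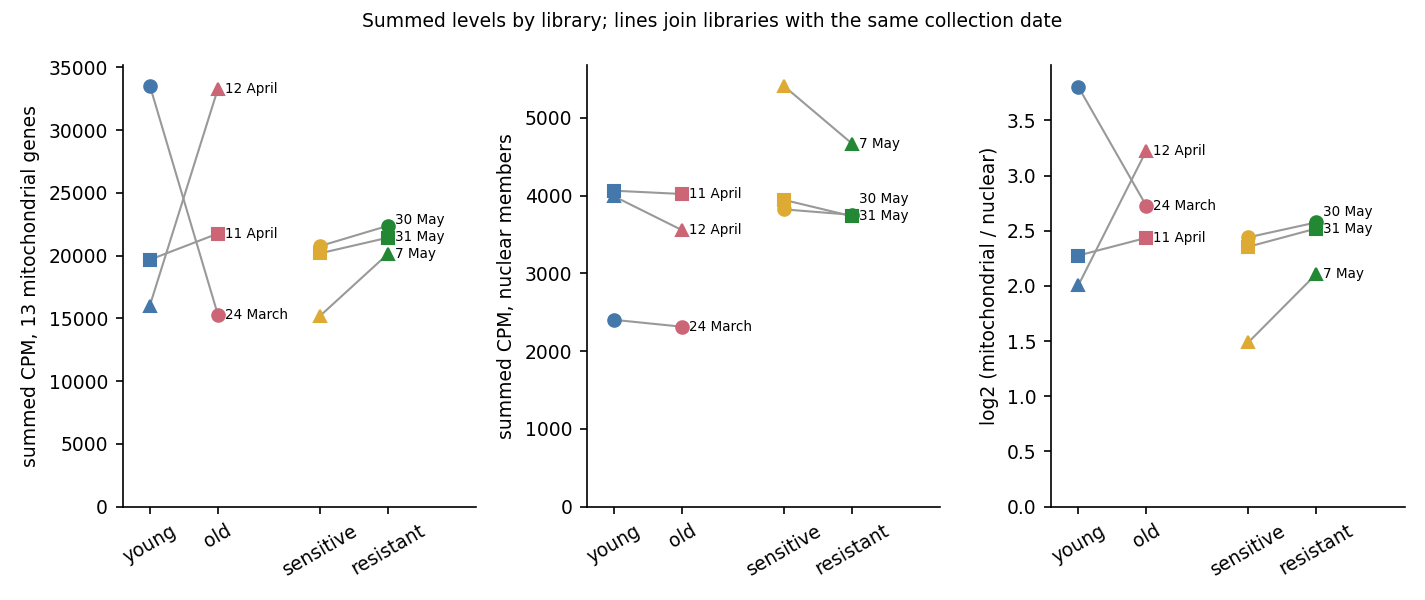
Summed CPM of the 13 mitochondrial genes (left), summed CPM of the nuclear members (middle) and the log2 of their ratio (right) in each of the 12 libraries, with lines joining libraries of the same collection date. The wild-type lines for the mitochondrial sum cross, with 33546 CPM in the young library of 24 March and 33285 CPM in the old one of 12 April. The nuclear line of 24 March lies below those of April, at 2403 CPM in young and 2314 CPM in old. That of 7 May lies above the other May lines and falls from 5410 CPM in sensitive to 4669 CPM in resistant.

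Other mitochondrial and metabolic genes gave the same counts. The lists held 77 tested genes of the mitochondrial ribosome, 34 assembly factors outside the name rule, 25 import genes, 19 of mitochondrial RNA processing, 18 of the tricarboxylic acid cycle, 17 of glycolysis, 16 of mitochondrial transcription and replication, 14 nuclear regulators of respiration, 12 of cytochrome c and ubiquinone, 10 of mitochondrial antioxidant defence and 4 of complex II. In each list 0 genes passed with age and 0 with Bax loss in edgeR's test. At an unadjusted p under 0.05 there were 3 genes in each comparison, and DESeq2 called 1 gene with age, Nnt (0.78 ± 0.24, adjusted p = 0.0308), and 0 with Bax loss, where it called 5.15% and 0.942% of all tested genes. The mitochondrial ribosome, which translates the 13 mitochondrial genes, had a median log2 fold change of -0.02 with age and -0.09 with Bax loss. With the replicate block, 4 genes of these lists were called as higher with age and 6 as lower, where 14.9% of all tested genes passed. Among them the transhydrogenase Nnt rose by 0.77 ± 0.10 (adjusted p = 0.000937) and the complex II assembly factor Sdhaf1 by 0.72 ± 0.16 (adjusted p = 0.0125), and fumarase, Fh1, fell by 0.45 (SE 0.09, adjusted p = 0.00811). With Bax loss, where 3.41% of all tested genes passed, 3 genes were called as lower in the same fit, the chaperonins Hspd1 (-0.61 ± 0.14, adjusted p = 0.0372) and Hspe1 (-0.57 ± 0.12, adjusted p = 0.0233), which fold imported proteins, and lactate dehydrogenase Ldha (-0.49 ± 0.09, adjusted p = 0.0110).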

How the data were processed

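RNA was measured in 12 libraries of sorted bone marrow B cells. The authors deposited 1 table of raw counts, with whole numbers of reads for each Entrez gene. Build mm10, Subread and featureCounts are named in the submitters' processing notes. Their versions, the annotation, the strand setting and the treatment of reads with several matches are not given in the sources used here, so overlapping and antisense genes cannot be separated. All columns of samples were used (0 left out).

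Symbols came from RefSeq (GRCm38.p6), which matched 25275 of 27179 genes. Lengths were those of the longest RefSeq-matched GENCODE vM21 transcript for 93 of 111 members, and of all exons joined for the others. Shared 50-base windows were sought on both strands of all annotated transcripts. No genome was searched.

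edgeR 4.0.16 (R 4.3.3) was run with TMM, filterByExpr (minimum count 10), and robust quasi-likelihood fits of all 12 libraries by group, which left 8 residual degrees of freedom. Adjusted p values are Benjamini-Hochberg values over 13592 genes (threshold 0.05). DESeq2 1.42.0, other scalings, no filter, leaving out libraries or dates, and the replicate block were alternatives. Tested on simulated data for the age comparison (13392 genes), the fit called 13 of 100 genes changed by 1 on the log2 scale and 88 of 100 changed by 2, with 6 false calls.

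The labels give libraries of the same number a shared collection date within each genetic background, so the numbers pair the samples. Same-numbered libraries deviated together (correlations of 0.745, 0.512 and 0.555 in wild type and 0.284, 0.325 and 0.487 in Bak-deficient mice). The block fit left 4 residual degrees of freedom. Sums and ratios over members were given no test. Members, gene lists and tests were chosen with earlier results of these data known. Named genes were all mitochondrial genes, the nuclear members called, the most and least abundant of each complex, the 3 largest rises and falls, members with isoforms, and the called genes of other lists (at most 4 a list). Members whose groups did not overlap, and those at the ends of the date differences, were chosen after their values were seen. Total counts of 13474162 to 23539764 per library set the precision of low genes. Some items are not reported here.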

Additional observations from a re-analysis of the deposited data

How the results depend on the processing

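The count of members passing the threshold was 0 in each of the 5 comparisons with DESeq2, without TMM, with TMM computed without the mitochondrial genome, and without the filter, was 0 in the 4 comparisons between 2 groups with those libraries fitted alone, and ran from 0 to 0 over the settings that left out 1 library. The replicate block gave other counts: with age 2 nuclear members passed, and for the difference between the age and Bax effects 1 did, where it gave 0 with Bax loss. The block was fitted for age, Bax loss and their difference, since the Bak-deficient groups share no date with young wild type.

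The log2 ratio of mitochondrial to nuclear sums moved by less than 1 pooled SD in each alternative, but that SD is wide. Leaving out 1 library at a time, it ran from -0.24 to 0.66 for old minus young, from 0.00388 to 0.48 for resistant minus sensitive, from -0.94 to -0.05 for sensitive minus young and from -0.64 to 0.26 for resistant minus young. The age value of 0.10 became 0.69 without the 24 March libraries, and it was 0.15 as a mean of log2 CPM, 0.15 without mt-Co1 and 0.10 with the 7 mitochondrial genes outside or partly outside the copied run. For Bax loss the same 3 alternatives gave 0.25, 0.39 and 0.31 beside 0.31. The cause of these shifts was not tested. Depth limits members of few reads, the fewest among those tested being Ndufs6b (106 over all libraries), Atp5c1-ps (116), Cox6b2 (146), Cox7a1 (155) and Cox7a2 (185).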

Other observations

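The mitochondrial ribosomal RNAs, which the name rule leaves out and which are known to carry short tails, were read in each polyadenylated library. mt-Rnr2, the large ribosomal RNA, was at 1116, 494 and 347 CPM in young wild type (replicates 1, 2 and 3), at 366, 422 and 571 CPM in old wild type, at 347, 424 and 1221 CPM in apoptosis-sensitive and at 469, 496 and 846 CPM in apoptosis-resistant libraries. The highest values were those of sensitive replicate 3 and young replicate 1. mt-Rnr1, the small ribosomal RNA, ran from 99.4 to 240 CPM over the 12 libraries, with its highest value in young replicate 1. These libraries differed in their protein genes: the 13 genes summed to 33546 CPM in young replicate 1 and to 15181 CPM in sensitive replicate 3.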
